A study of Mus musculus with 8 samples.

Results

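The genes described here are 33 mouse genes of antioxidant defence: glutathione enzymes, peroxiredoxins, superoxide dismutases, thioredoxins, glutaredoxins, catalase, a few inducible stress enzymes, the metallothioneins Mt1 and Mt2, and the regulators Nfe2l2 and Keap1. They were taken by symbol from a table of 23847 rows of FPKM, a level scaled to transcript length and to the fragments sequenced. All 33 were found, and all 33 reached the minimum mean of 1 FPKM set for testing, as did 11975 genes in total. The tissue was heart ventricle of C57BL/6 mice at postnatal day 21, and poly(A) RNA was sequenced in 8 libraries. The 4 libraries called Med1cKO came from mice with a cardiac knockout of Med1. The 4 libraries called WT came from mice with floxed Med1 (Med1 fl/fl), so WT stands for an intact but floxed gene. Med1 encodes a Mediator subunit, and Mediator connects transcription factors to RNA polymerase II. The sources used here give neither the promoter that drove the deletion nor the number of animals per library, so p-values measure the spread between these libraries, which may be partly technical.

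Superoxide, made largely as a by-product of respiration, is turned into hydrogen peroxide by superoxide dismutases. Hydrogen peroxide is then removed by catalase, by glutathione peroxidases that spend reduced glutathione, and by peroxiredoxins that are recharged by thioredoxin. Both thiol systems draw their electrons from NADPH, and the enzymes are spread over separate pools in the blood plasma, the endoplasmic reticulum, the cytosol, the mitochondria and the peroxisomes. NRF2, the product of Nfe2l2, drives many of these genes through antioxidant response elements in their promoters, while KEAP1 marks NRF2 for degradation. Heart muscle is packed with mitochondria, so the mitochondrial enzymes are normally abundant there. Each gene was assigned to the pool where its main product is known to act, although Gpx1, Gpx4 and Gsr also have mitochondrial forms and Prdx5 is also found in peroxisomes and cytosol.

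Med1 itself was at 7.80, 8.37, 7.89 and 9.15 FPKM in Med1cKO 1 to 4, against 15.5, 16.1, 10.6 and 16.8 FPKM in WT 1 to 4. Its log2 change, Med1cKO minus WT on the log2(FPKM + 1) scale used throughout, was -0.74 ± 0.135 (limma's SE, adjusted p = 0.0011). Summed FPKM per library was 481719 to 502629 in Med1cKO and 507484 to 536174 in WT, and the number of sequenced fragments is unknown. Relative depth read from the lowest FPKM values was 1.03 to 1.1 times Med1cKO 1 in the other Med1cKO libraries and 0.976 to 1.09 in WT. Only ratios close to equal depth were admitted to this reading, so it could not have shown a large difference. The median log2 change over all genes tested was 0.25 as deposited, and 0.01 after the libraries were rescaled by the median of ratios, so each change below is to be read against that shift. The sum of 10 cardiomyocyte markers was 20780 to 27894 FPKM in Med1cKO and 46726 to 53642 FPKM in WT. Of the 10, 7 were lower, and Actn2, Tnnc1 and Nkx2-5 were higher, of which only Actn2 after rescaling. The sum of 8 fibroblast markers was 1170 to 1932 FPKM in Med1cKO and 581 to 689 FPKM in WT, with 6 of the 8 higher (4 after rescaling). Postn, Col1a1 and Col1a2 made up most of the difference. Postn was at 338 to 608 FPKM in Med1cKO and 23.9 to 34.4 FPKM in WT, while Lum and Dpt were neither higher nor lower. Endothelial markers overlapped, at 302 to 416 FPKM in Med1cKO and 300 to 375 FPKM in WT. The sum of 8 smooth muscle and pericyte markers was 775 to 1053 FPKM in Med1cKO and 345 to 516 FPKM in WT, with 4 of the 8 higher and 2 lower. Most of that difference was Cnn1, at 268 to 404 FPKM in Med1cKO and 1.11 to 1.48 FPKM in WT. Rgs5 and Kcnj8 were the 2 lower, and Acta2 and Myh11 were neither higher nor lower. Fewer cells of a type, less RNA per cell and changes of the marker genes themselves cannot be told apart in such bulk tissue.

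Of the 33 genes, 19 were higher and 8 lower in Med1cKO at a limma adjusted p under 0.05, and 6 did not pass. Over all genes tested 44.9% were higher and 16.4% lower (61.3% either way), and the median log2 change of the 33 was 0.49. After rescaling 16 were higher and 10 lower, where the shares over all genes were 27.0% and 26.9%, and the median was 0.22. After quantile normalization 17 were higher and 9 lower, where 54.3% of all genes passed either way. The 4 Med1cKO libraries all lay above the 4 WT libraries for 17 of the genes and all below them for 7, against 41.7% and 15.3% of all genes (57.1% either way). By the pool in which the enzyme acts, both secreted enzymes and all 4 endoplasmic reticulum enzymes were higher. Of 17 cytosolic genes 12 were higher and 2 lower, and of 7 mitochondrial genes 6 were lower and none was higher. After rescaling 9 cytosolic genes were higher, 3 lower and 5 not called, while the secreted, endoplasmic reticulum and mitochondrial counts were unchanged. The median log2 change was 2.32 for secreted, 0.94 for endoplasmic reticulum, 0.57 for cytosolic and -0.58 for mitochondrial genes, and 2.04, 0.68, 0.33 and -0.86 after rescaling.

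**Figure D1:**
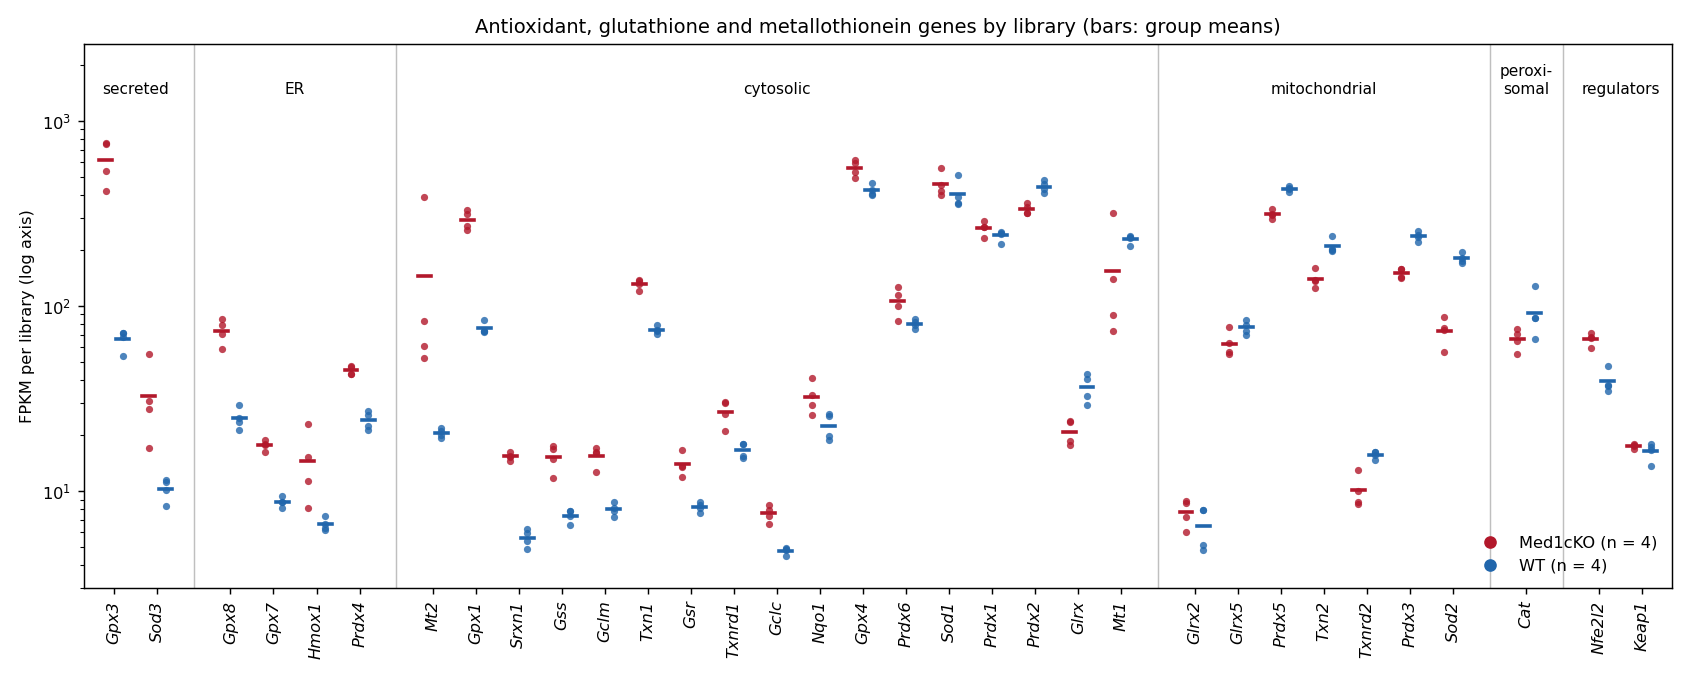
FPKM of the 33 genes in each library on a log axis, with Med1cKO (red) left of WT (blue) for each gene, a point per library (n = 4 each) and a bar at the group mean, grouped by the pool where the product acts. Gpx3 lies at 417 to 755 FPKM in Med1cKO, above 53.7 to 71.4 FPKM in WT, whereas Sod2 lies at 56.2 to 87.5 FPKM in Med1cKO, below 170 to 196 FPKM in WT.

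By enzyme family, all 5 glutathione peroxidases were higher as deposited and 4 of them after rescaling, with a median log2 change of 1.52. All 4 genes of glutathione synthesis and reduction were higher under both scalings. Of 6 peroxiredoxins, 2 were higher and 3 lower (1 and 3 after rescaling), of 3 superoxide dismutases 1 was higher and 1 lower, and of the thioredoxins and their reductases 2 were higher and 2 lower. No glutaredoxin was higher and 2 of 3 were lower, by limma at an adjusted p under 0.05. Of the 2 metallothioneins 1 was higher and none lower (1 and 1 after rescaling), and of sulfiredoxin, quinone reductase, haem oxygenase and catalase 3 were higher and none lower (2 and 1 after rescaling). These counts stand beside 44.9% of all genes higher and 16.4% lower, or 27.0% and 26.9% after rescaling.

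Among the regulators, the transcription factor gene Nfe2l2 was higher and Keap1 was not called. Nfe2l2 (chr2:75675519-75704641, minus strand, GRCm38) was at 68.4, 71.1, 67.0 and 59.6 FPKM in Med1cKO 1 to 4, against 34.8, 37.2, 47.7 and 37.0 FPKM in WT 1 to 4. The groups did not overlap, and the log2 change was 0.76 ± 0.107 (limma adjusted p = 0.000243), or 0.48 after rescaling (limma adjusted p = 0.00501). Keap1 was at 17.6, 18.0, 17.7 and 16.8 FPKM in Med1cKO 1 to 4, against 17.4, 16.7, 18.0 and 13.7 FPKM in WT 1 to 4. The groups overlapped, and its log2 change of 0.09 ± 0.0889 (limma adjusted p = 0.388) became -0.17 after rescaling and -0.16 after quantile normalization, without passing in any of them. These are transcript levels, and NRF2 is controlled mainly through the stability of its protein.

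Promoter windows of 250 bases before and 50 bases after the annotated start were taken from RefSeq on GRCm38.p6, and 28 of the 33 genes had one. Those without one were Gclc, Gsr, Hmox1, Prdx6 and Sod3. The core of the antioxidant response element, TGACNNNGC, was searched on both strands. It occurred in 7 of the 28 windows (25.0%), and in 14.0% of the windows of 27025 genes. The 7 stretches are shown because they are where this core lies. For Txnrd1 the window with the match, chr10:82858956-82859255, lies inside the gene, which begins at chr10:82833951, so its start is an internal one. They are printed 5′ to 3′ on the strand of the gene, with the matched core in capitals and 10 flanking bases on each side.
Nfe2l2, 240 bases before the start, chr2:75704885-75704913, minus strand: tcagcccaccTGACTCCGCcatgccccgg
Gclm, 134 bases before the start, chr3:122245413-122245441, plus strand: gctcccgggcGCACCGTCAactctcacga
Prdx1, 133 bases before the start, chr4:116685456-116685484, plus strand: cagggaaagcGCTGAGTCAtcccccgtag
Txnrd1, 92 bases before the start, chr10:82859104-82859132, plus strand: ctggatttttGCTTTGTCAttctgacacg
Mt2, 79 bases before the start, chr8:94172529-94172557, plus strand: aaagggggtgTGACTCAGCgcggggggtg
Sod1, 56 bases before the start, chr16:90220696-90220724, plus strand: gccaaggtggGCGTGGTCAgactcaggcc
Srxn1, 29 bases after the start, chr2:152105542-152105570, plus strand: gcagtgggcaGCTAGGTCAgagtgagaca
Of these 7 genes, Nfe2l2, Gclm, Txnrd1, Mt2 and Srxn1 were higher in Med1cKO under both scalings, while Prdx1 and Sod1 did not pass under either. Gpx3, Gpx7, Gpx8, Prdx4, Gpx1, Txn1 and Gss, with windows that lack the core, were also higher under both. Other genes with such windows were not. Of all 33 genes, 19 were higher as deposited and 16 after rescaling, against 44.9% and 27.0% of all genes tested. A match is a description of the letters, and binding was not measured.

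The secreted enzymes showed the highest median change. Gpx3, the glutathione peroxidase of blood plasma, lies at chr11:54902854-54910382 on the plus strand. It was at 746, 417, 534 and 755 FPKM in Med1cKO 1 to 4, against 71.4, 71.1, 53.7 and 67.7 FPKM in WT 1 to 4. The groups did not overlap, and within Med1cKO the lowest library was 2 and the highest was 4. By mean FPKM Gpx3 ranked 1 among the 33 genes in Med1cKO, where its range overlapped that of Gpx4 at rank 2, and it ranked 15 in WT. The log2 change was 3.16 ± 0.192 (limma adjusted p = 2.35e-06), and it was 3.05 to 3.33 when any 1 library was left out. Sod3, the superoxide dismutase of the extracellular matrix, was at 30.8, 17.1, 27.6 and 55.1 FPKM in Med1cKO 1 to 4, against 11.5, 10.1, 8.31 and 11.2 FPKM in WT 1 to 4. The Med1cKO libraries were again all above the WT libraries and again lowest in Med1cKO 2 and highest in Med1cKO 4. Its log2 change was 1.47 ± 0.287 (limma adjusted p = 0.00166), and 1.18 without Med1cKO 4 (limma adjusted p = 0.000922). The fibroblast marker sum was also higher in Med1cKO, largely through Postn, Col1a1 and Col1a2. The smooth muscle and pericyte sum was higher too, largely through Cnn1. The part of these cells in the changes of Gpx3 and Sod3 was not tested.

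The endoplasmic reticulum enzymes serve oxidative protein folding or, in the case of Hmox1, haem breakdown. Gpx8, a membrane-bound peroxidase of that compartment, was at 58.8, 70.2, 79.1 and 84.7 FPKM in Med1cKO 1 to 4, against 21.4, 23.6, 24.8 and 29.2 FPKM in WT 1 to 4. Gpx7, its soluble relative, was at 16.2, 18.9, 17.8 and 18.0 FPKM in Med1cKO 1 to 4, against 9.37, 8.15, 8.70 and 8.71 FPKM in WT 1 to 4. Prdx4, the peroxiredoxin of the secretory pathway, was at 47.2, 42.8, 43.1 and 46.8 FPKM in Med1cKO 1 to 4, against 25.7, 21.4, 22.6 and 27.2 FPKM in WT 1 to 4. In all of these the groups stood well apart. The log2 changes were 1.52 ± 0.13 for Gpx8, 0.94 ± 0.0742 for Gpx7 and 0.87 ± 0.0889 for Prdx4, with limma adjusted p-values of 1.41e-05, 9.38e-06 and 3.74e-05 in that order. Hmox1, which encodes the inducible haem oxygenase, varied more. It was at 15.4, 8.15, 11.3 and 23.2 FPKM in Med1cKO 1 to 4, against 6.67, 6.20, 7.31 and 6.35 FPKM in WT 1 to 4, so that Med1cKO 2 came close to the highest WT library. Its log2 change was 0.93 ± 0.251 (limma adjusted p = 0.00964), and 0.69 without Med1cKO 4 (limma adjusted p = 0.00903). In the GENCODE annotation of GRCm38 Gpx8 overlaps Cdc20b on the other strand, and whether counting used the strand is not given in the sources used here.

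In the cytosol, Gpx1, the most widely expressed glutathione peroxidase, stood out among the peroxidases. It was at 328, 257, 315 and 269 FPKM in Med1cKO 1 to 4, against 73.1, 72.2, 73.7 and 84.4 FPKM in WT 1 to 4. The log2 change was 1.93 ± 0.0986 (limma adjusted p = 1.06e-06), and no leave-one-out value fell outside 1.87 to 1.99. Gpx4, which reduces lipid peroxides in membranes, was the most abundant cytosolic member by mean FPKM over all libraries. It was at 590, 529, 615 and 491 FPKM in Med1cKO 1 to 4, against 423, 460, 403 and 399 FPKM in WT 1 to 4. The groups did not overlap, but the log2 change of 0.40 ± 0.0921 (limma adjusted p = 0.00437) lay near the median of all genes and fell to 0.12 after rescaling (limma adjusted p = 0.31).

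Genes of thioredoxin recharging and peroxiredoxin repair were higher in the cytosol. Srxn1, which encodes sulfiredoxin, the enzyme that repairs overoxidised peroxiredoxins, was at 14.6, 15.4, 15.3 and 16.3 FPKM in Med1cKO 1 to 4, against 4.86, 6.26, 5.38 and 5.95 FPKM in WT 1 to 4. Txn1, the cytosolic thioredoxin, was at 131, 120, 136 and 138 FPKM in Med1cKO 1 to 4, against 79.3, 74.0, 73.0 and 70.6 FPKM in WT 1 to 4. Each gene had a narrow spread within both groups, and the groups did not overlap. The log2 change was 1.31 ± 0.0844 for Srxn1 (limma adjusted p = 3.13e-06) and 0.81 ± 0.0727 for Txn1 (limma adjusted p = 1.83e-05). Txnrd1, the reductase that recharges Txn1, averaged 26.9 ± 4.33 FPKM in Med1cKO and 16.6 ± 1.52 FPKM in WT (SD, n = 4 each), with a log2 change of 0.65 ± 0.122 (limma adjusted p = 0.00127).

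The cytosolic peroxiredoxins did not move with them. Prdx1 averaged 264 ± 21.6 FPKM in Med1cKO and 240 ± 16.4 FPKM in WT (SD, n = 4 each), and Prdx2 averaged 336 ± 20.6 FPKM in Med1cKO and 441 ± 30.6 FPKM in WT. Prdx2, abundant also in red blood cells, was lower with groups that did not overlap (log2 change -0.39 ± 0.0796, limma adjusted p = 0.00209), while Prdx1 did not pass as deposited (0.13, limma adjusted p = 0.209) and had the opposite sign after rescaling (-0.15, limma adjusted p = 0.17). Sod1, the copper and zinc superoxide dismutase, likewise did not pass (0.18 ± 0.142, limma adjusted p = 0.286, and -0.10 after rescaling). Prdx6, a peroxiredoxin that uses glutathione, passed as deposited (0.38 ± 0.123, limma adjusted p = 0.0214), but not after rescaling (0.11, limma adjusted p = 0.51) and not without Med1cKO 2, Med1cKO 3 or WT 1 (limma adjusted p = 0.054, 0.0552 and 0.0586). Nqo1, a quinone reductase widely used as a readout of NRF2, behaved in the same way. It passed as deposited (0.49 ± 0.156, limma adjusted p = 0.0217), but not after rescaling (0.22, limma adjusted p = 0.255) and not without Med1cKO 3, WT 3 or WT 4 (limma adjusted p = 0.0531, 0.0623 and 0.0604). Glrx, the cytosolic glutaredoxin that removes glutathione from proteins, was lower at 21.0 ± 3.29 FPKM in Med1cKO and 36.3 ± 6.32 FPKM in WT (log2 change -0.76 ± 0.144, limma adjusted p = 0.00142).

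The steps that make and recycle glutathione were higher together. Gss, glutathione synthetase, was at 17.5, 15.0, 16.8 and 11.8 FPKM in Med1cKO 1 to 4, against 7.81, 7.31, 7.81 and 6.58 FPKM in WT 1 to 4. Gclm, the modifier subunit of glutamate-cysteine ligase, the rate-limiting enzyme, was at 17.1, 12.7, 16.3 and 16.1 FPKM in Med1cKO 1 to 4, against 7.85, 8.70, 8.15 and 7.26 FPKM in WT 1 to 4. For both genes the lowest Med1cKO library was above the highest WT library. The log2 change was 0.95 ± 0.119 for Gss (limma adjusted p = 0.000123) and 0.88 ± 0.102 for Gclm (limma adjusted p = 7.7e-05). Gclc, the catalytic subunit of the ligase, averaged 7.58 ± 0.765 FPKM in Med1cKO and 4.76 ± 0.212 FPKM in WT (SD, n = 4 each), with a log2 change of 0.57 ± 0.0844 (limma adjusted p = 0.000326). Gsr, the reductase that regenerates glutathione, averaged 13.9 ± 1.94 FPKM in Med1cKO and 8.24 ± 0.517 FPKM in WT, with a log2 change of 0.68 ± 0.0995 (limma adjusted p = 0.000293). After rescaling the 4 log2 changes were 0.69, 0.62, 0.33 and 0.43 in the order given, each at a limma adjusted p under 0.05. Gss overlaps Acss2 on the other strand in the annotation.

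The mitochondrial enzymes went the other way. Sod2 (chr17:13007839-13018119, plus strand), the manganese superoxide dismutase of the matrix, was at 56.2, 87.5, 74.1 and 76.4 FPKM in Med1cKO 1 to 4, against 175, 170, 182 and 196 FPKM in WT 1 to 4. The Med1cKO mean was 40.7% of the WT mean, and the log2 change was -1.30 ± 0.126 (limma adjusted p = 2.78e-05). Prdx5, the most abundant of the 7, was at 309, 335, 314 and 296 FPKM in Med1cKO 1 to 4, against 413, 426, 443 and 434 FPKM in WT 1 to 4. The groups again did not overlap, with a log2 change of -0.45 ± 0.0683 (limma adjusted p = 0.000367). The matrix peroxiredoxin Prdx3, thioredoxin Txn2 and its reductase Txnrd2 form the mitochondrial counterpart of the cytosolic thioredoxin system. Prdx3 averaged 150 ± 9.11 FPKM in Med1cKO and 238 ± 13.1 FPKM in WT, Txn2 averaged 140 ± 15.3 FPKM in Med1cKO and 210 ± 18.4 FPKM in WT, and Txnrd2 averaged 10.1 ± 2.07 FPKM in Med1cKO and 15.8 ± 0.763 FPKM in WT (SD, n = 4 each). Their log2 changes were -0.66, -0.58 and -0.61, with limma adjusted p-values of 6.63e-05, 0.000669 and 0.00182, and no pair of groups overlapped.

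Of the mitochondrial glutaredoxins, Glrx5, which hands on iron-sulphur clusters, averaged 62.6 ± 9.92 FPKM in Med1cKO and 76.6 ± 6.17 FPKM in WT with overlapping groups (SD, n = 4 each). Its log2 change of -0.29 ± 0.113 passed narrowly (limma adjusted p = 0.0465). The call was lost without Med1cKO 1, 3 or 4 or without WT 2, 3 or 4, at limma adjusted p-values from 0.0704 to 0.118. After rescaling the log2 change was -0.57 (limma adjusted p = 0.00411) and the groups did not overlap, and after quantile normalization it was -0.54 (limma adjusted p = 0.00363). Glrx2, which acts on protein thiols of the matrix, averaged 7.69 ± 1.35 FPKM in Med1cKO and 6.44 ± 1.70 FPKM in WT and did not pass (0.24 ± 0.175, limma adjusted p = 0.263, and -0.01 after rescaling). Cardiomyocyte marker sums were lower in the same Med1cKO libraries, and their part in the mitochondrial decreases was not tested.

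Catalase, encoded by Cat and located in peroxisomes, was at 70.3, 64.4, 75.3 and 55.0 FPKM in Med1cKO 1 to 4, against 86.3, 129, 86.2 and 66.4 FPKM in WT 1 to 4. Only WT 4 lay inside the Med1cKO range. The log2 change of -0.44 ± 0.184 did not pass (limma adjusted p = 0.0656). It passed after rescaling (-0.71, limma adjusted p = 0.00856), after quantile normalization (-0.70, limma adjusted p = 0.00903) and without WT 4 (-0.58, limma adjusted p = 0.0181).

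**Figure D2:**
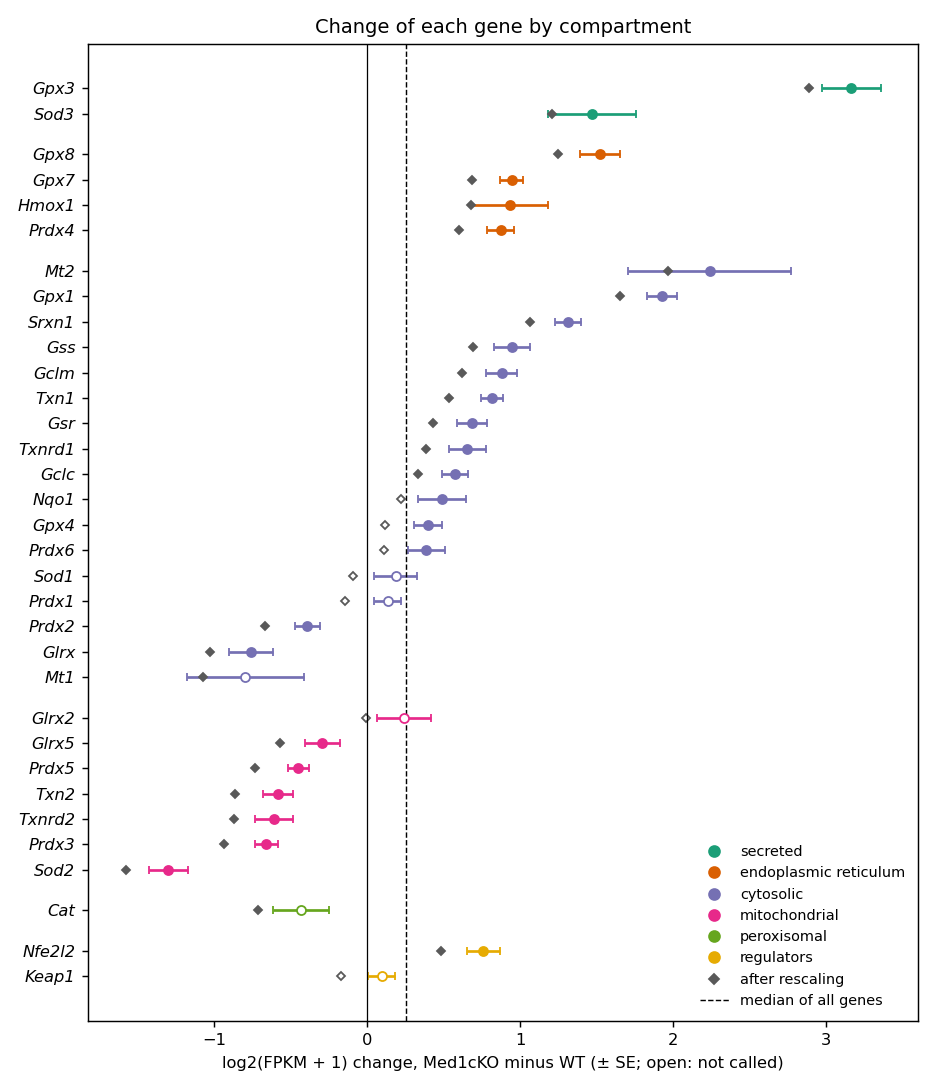
Log2 change of each gene on the log2(FPKM + 1) scale, Med1cKO minus WT, as deposited (circles with limma's SE, coloured by pool) and after median-of-ratios rescaling (diamonds); open symbols did not pass at an adjusted p under 0.05, and the dashed line at 0.25 is the median of all genes tested. Mitochondrial genes lie left of the dashed line, from -1.30 for Sod2 to 0.24 for Glrx2, which is -0.01 after rescaling, and the secreted and endoplasmic reticulum genes lie right of it, from 0.87 to 3.16.

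Ratios of related enzymes within a library are not changed by a single factor per library, as in median-of-ratios rescaling. Quantile normalization can change them. Such ratios were formed for 10 pairs, chosen after the values were seen. The ratio of the mitochondrial Sod2 to the cytosolic Sod1 was 0.102, 0.209, 0.164 and 0.193 in Med1cKO 1 to 4, against 0.452, 0.336, 0.51 and 0.552 in WT 1 to 4. The extracellular Sod3 moved oppositely, with a Sod3 to Sod1 ratio of 0.0742 ± 0.0442 in Med1cKO and 0.0261 ± 0.00546 in WT (SD, n = 4 each). Txn2 was 1.07 ± 0.182 times Txn1 in Med1cKO and 2.84 ± 0.368 times Txn1 in WT. Txnrd2 was 0.379 ± 0.0691 times Txnrd1 in Med1cKO and 0.955 ± 0.0931 times Txnrd1 in WT. In FPKM Txn2 was thus the more abundant of the 2 thioredoxin transcripts in every WT library, and in Med1cKO they were near parity.

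The peroxiredoxin ratios shifted in the same direction. Prdx3 was 0.574 ± 0.0678 times Prdx1 in Med1cKO and 0.992 ± 0.0419 times Prdx1 in WT, and Prdx5 was 1.20 ± 0.159 times Prdx1 in Med1cKO and 1.79 ± 0.17 times Prdx1 in WT (SD, n = 4 each). Among the peroxidases, Gpx3 was 2.10 ± 0.557 times Gpx1 in Med1cKO and 0.873 ± 0.128 times Gpx1 in WT, although Gpx1 was itself higher in Med1cKO. The glutaredoxins were the exception, since the mitochondrial forms were higher relative to the cytosolic Glrx. Glrx2 was 0.366 ± 0.0218 times Glrx in Med1cKO and 0.188 ± 0.0795 times Glrx in WT, and Glrx5 was 3.02 ± 0.486 times Glrx in Med1cKO and 2.14 ± 0.274 times Glrx in WT. The groups did not overlap for 9 of the 10 ratios and overlapped for Glrx5 to Glrx. Because the pairs were chosen on these values, the ratios are a description and no test is given.

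**Figure D3:**
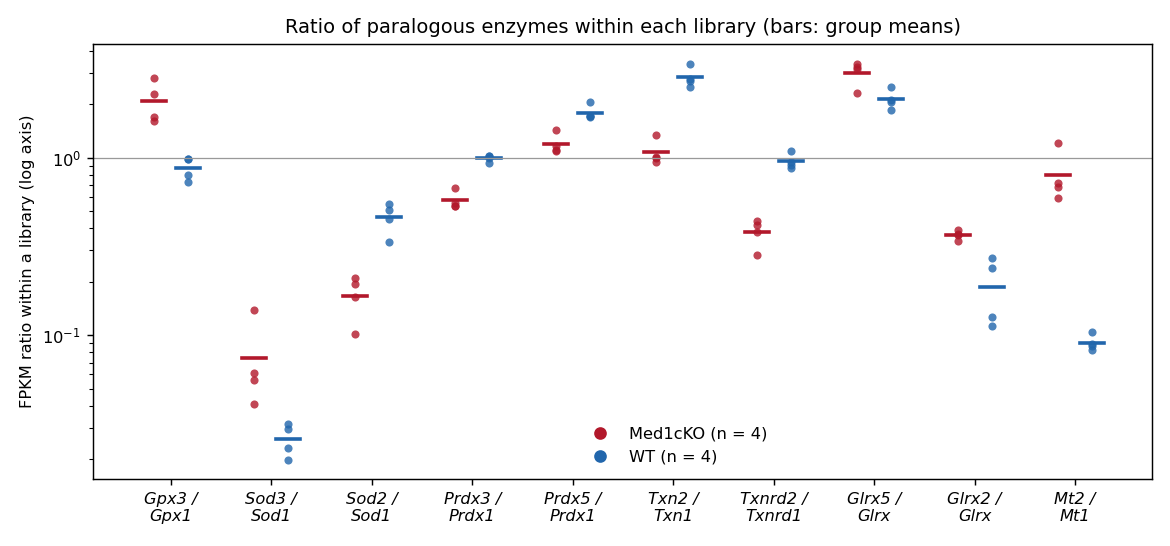
FPKM ratio of 10 pairs of related enzymes within each library on a log axis, with Med1cKO (red) left of WT (blue), a point per library (n = 4 each) and a bar at the group mean. Sod2 to Sod1, Prdx3 to Prdx1, Prdx5 to Prdx1, Txn2 to Txn1 and Txnrd2 to Txnrd1 were lower in every Med1cKO library than in any WT library, and Gpx3 to Gpx1, Sod3 to Sod1, Glrx2 to Glrx and Mt2 to Mt1 were higher.

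The pools also changed their share of the summed FPKM of the 33 genes. Mitochondrial enzymes made up 17.8% ± 2.78 of the sum in Med1cKO and 32.7% ± 1.55 in WT (SD, n = 4 each). Secreted enzymes made up 14.9% ± 3.14 in Med1cKO and 2.15% ± 0.25 in WT, most of it Gpx3 in both groups. Endoplasmic reticulum enzymes made up 3.50% ± 0.272 in Med1cKO and 1.82% ± 0.183 in WT. The cytosolic share was 60.3% ± 0.504 in Med1cKO and 59.1% ± 1.15 in WT, with overlapping groups. The summed FPKM of all 33 genes was 3898 to 4659 in Med1cKO and 3455 to 3710 in WT.

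Metallothioneins are small cysteine-rich proteins that bind zinc and copper and scavenge oxidants, and their genes respond to zinc through the factor MTF1, which binds metal response elements, and to glucocorticoids. Mt2 (chr8:94172618-94173567) and Mt1 (chr8:94179089-94180327) are neighbours on the plus strand of GRCm38, with 5521 bases between them. Their 250 bases before the annotated start, from RefSeq on GRCm38.p6, are shown because the ratio of the 2 genes differed between the groups. Capitals mark matches to the metal response element core, TGCGCNC or TGCACNC, on either strand.
Mt2, chr8:94172368-94172617, plus strand: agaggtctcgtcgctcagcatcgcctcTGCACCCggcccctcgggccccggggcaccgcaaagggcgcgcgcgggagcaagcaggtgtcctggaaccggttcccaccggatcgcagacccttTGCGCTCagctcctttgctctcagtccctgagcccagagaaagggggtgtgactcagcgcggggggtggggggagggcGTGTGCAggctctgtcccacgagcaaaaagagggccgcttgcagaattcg
Mt1, chr8:94178839-94179088, plus strand: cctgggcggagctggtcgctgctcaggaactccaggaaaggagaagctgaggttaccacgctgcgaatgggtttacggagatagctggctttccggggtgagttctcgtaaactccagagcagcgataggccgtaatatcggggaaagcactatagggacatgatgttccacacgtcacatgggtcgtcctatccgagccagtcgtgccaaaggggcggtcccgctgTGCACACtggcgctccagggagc
With the 50 bases after the start included, the window of Mt2 held 4 matches and that of Mt1 held 3, and 2.27% of the windows of all genes held 3 or more. Mt1 has matches 3 and 21 bases after the annotated start, just outside the stretch printed. The capitals in the 2 stretches therefore do not compare the number of elements of the 2 genes. At least 1 match occurred in 8 of 28 windows of the genes described here (28.6%) and in 28.2% of all windows, so the core was no more frequent among them.

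Mt2 was higher in Med1cKO and Mt1 was lower in 3 of its 4 libraries. Mt2 was at 82.9, 60.9, 52.6 and 387 FPKM in Med1cKO 1 to 4, against 20.2, 21.2, 19.3 and 21.9 FPKM in WT 1 to 4. The groups did not overlap, and Med1cKO 4 stood far above the other 3. The log2 change was 2.24 ± 0.533 (limma adjusted p = 0.00509), and 1.59 without Med1cKO 4 (limma adjusted p = 4.01e-05). Mt1, whose values are given in full because of this contrast and so were chosen after they were seen, was at 139, 89.6, 73.6 and 320 FPKM in Med1cKO 1 to 4, against 232, 238, 235 and 210 FPKM in WT 1 to 4. Med1cKO 4 was above all WT libraries and the other 3 were below them. Its log2 change of -0.80 ± 0.382 did not pass (limma adjusted p = 0.0971), and it passed after rescaling (-1.08, limma adjusted p = 0.0359) and without Med1cKO 4 (-1.22, limma adjusted p = 0.00065).

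The ratio of Mt2 to Mt1 separated the groups in all libraries. It was 0.596, 0.68, 0.715 and 1.21 in Med1cKO 1 to 4, against 0.0868, 0.0893, 0.0821 and 0.104 in WT 1 to 4. The log2 difference was 3.09, and 2.87 without Med1cKO 4. That library stood apart in other ways too. The sum of 4 adipocyte markers was 131 FPKM in Med1cKO 4, 0.29 to 11.7 FPKM in the other Med1cKO libraries and 0 to 17.6 FPKM in WT. The sum of 7 red blood cell markers was 10357 FPKM in Med1cKO 4, 1206 to 2739 FPKM in the other Med1cKO libraries and 1358 to 7053 FPKM in WT. The atrial marker Myl7 was at 61.6, 42.6, 2.50 and 726 FPKM in Med1cKO 1 to 4, against 0.573, 0.355, 0.68 and 0 FPKM in WT 1 to 4. The part of these in the metallothionein values was not tested. Without Med1cKO 4 the Mt2 call held, and Myl7 was above all WT libraries in the other Med1cKO libraries as well. How reads shared between such closely related genes, or with processed pseudogenes, were divided is not given in the sources used here, and Mt2 also overlaps a noncoding gene, Gm45774, on the other strand.

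**Figure D4:**
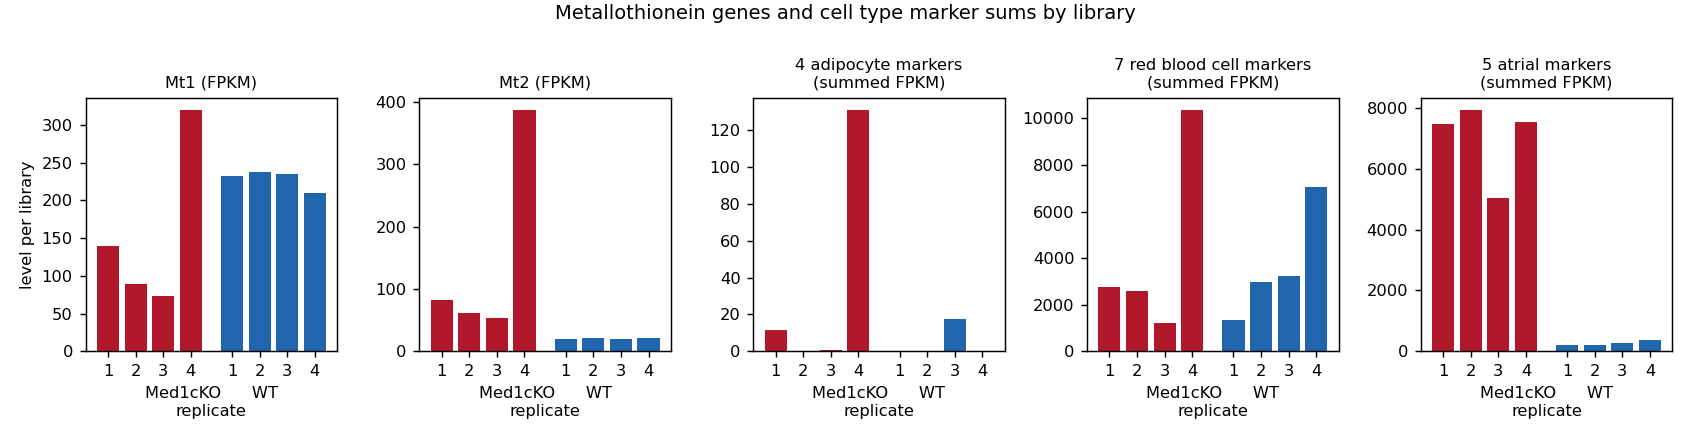
Bars from 0 give Mt1 and Mt2 (FPKM) and the summed FPKM of adipocyte, red blood cell and atrial markers in each library, with Med1cKO 1 to 4 (red) left of WT 1 to 4 (blue). Med1cKO 4 has the highest Mt1 (320), Mt2 (387), adipocyte sum (131) and red blood cell sum (10357), whereas the atrial sum, which is mostly Nppa, is 5040 or more in all 4 Med1cKO libraries and at most 378 in WT.

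Other genes of the same pathways were read from 7 lists, with 134 tested genes in all, of which 52 were higher and 24 lower in Med1cKO. Shares over all genes were 44.9% and 16.4%. After rescaling 40 were higher and 43 lower, where the shares over all genes were 27.0% and 26.9%. The counts of each list below are to be read against these shares. G6pdx, Pgd, Tkt, Me1, Abcc1 and Slc7a11 stand in a pair of lists each, and they enter these totals once. Of 17 glutathione S-transferases tested, which attach glutathione to reactive compounds, 2 were higher and 10 lower (1 and 12 after rescaling), with a median log2 change of -0.54. Gsta4, which detoxifies the lipid peroxidation product hydroxynonenal, averaged 9.77 ± 4.47 FPKM in Med1cKO and 53.9 ± 3.51 FPKM in WT (log2 change -2.46, limma adjusted p = 6.89e-05). The mitochondrial and peroxisomal Gstk1 averaged 15.7 ± 1.60 FPKM in Med1cKO and 52.7 ± 5.41 FPKM in WT (-1.68, limma adjusted p = 2.17e-06), and Gstp2 was also lower (-1.15). In contrast Gsto1, an omega class enzyme with thioltransferase activity, averaged 226 ± 55.2 FPKM in Med1cKO and 98.7 ± 8.86 FPKM in WT (1.16, limma adjusted p = 0.000232). Gstm4 was the other gene called higher (0.37), and it was not called after rescaling.

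Of 15 NADPH supply genes tested, 6 were higher and 5 lower (5 and 6 after rescaling). G6pdx and Pgd, cytosolic enzymes of the pentose phosphate pathway, were higher, with log2 changes of 0.96 (limma adjusted p = 0.00186) and 0.999 (limma adjusted p = 1.94e-05). Mthfd2, a mitochondrial folate enzyme, was also higher (1.14, limma adjusted p = 0.000642). Idh2, the mitochondrial isocitrate dehydrogenase that makes NADPH, averaged 417 ± 120 FPKM in Med1cKO and 868 ± 81.6 FPKM in WT (-1.09, limma adjusted p = 0.000674). Its cytosolic relative Idh1 was lower too (-0.97, limma adjusted p = 0.00123), as was the mitochondrial folate enzyme Aldh1l2 (-1.20, limma adjusted p = 0.00204). The decreases were therefore not limited to mitochondrial enzymes, nor the increases to cytosolic ones.

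Of 16 genes of glutathione supply and breakdown, 4 were higher and 2 lower (3 and 7 after rescaling). Slc3a2, the heavy chain shared by several amino acid transporters, the cystine carrier among them, averaged 38.4 ± 2.69 FPKM in Med1cKO and 14.6 ± 0.803 FPKM in WT (log2 change 1.34, limma adjusted p = 1.69e-06). Its partner in cystine uptake, Slc7a11, was below the minimum and was not tested. Chac1 and Chac2, which degrade glutathione in the cytosol, were lower (-1.17 and -0.67, limma adjusted p = 0.00233 and 0.000837). Hagh, a glyoxalase that releases glutathione from its adduct, and Slc25a40, a carrier of the inner mitochondrial membrane, were higher (1.09 and 0.66). Without Med1cKO 4 the number lower in this list was 4.

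Of 26 other thiol, methionine sulphoxide and selenoprotein genes, 15 were higher and 2 lower (12 and 6 after rescaling), with a median log2 change of 0.48. The shares over all genes were 44.9% and 16.4%, or 27.0% and 26.9% after rescaling. The methionine sulphoxide reductases did not move as 1 group. Msrb3, which has an endoplasmic reticulum form, averaged 111 ± 11.1 FPKM in Med1cKO and 47.8 ± 3.04 FPKM in WT (log2 change 1.19, limma adjusted p = 6.3e-06). The mitochondrial Msrb2 averaged 21.7 ± 7.45 FPKM in Med1cKO and 60.4 ± 2.66 FPKM in WT (-1.49, limma adjusted p = 0.000164). Of their relatives, named here to complete the family after their values were seen, Msrb1 was higher (0.55, limma adjusted p = 0.000494) and Msra did not pass (-0.10, limma adjusted p = 0.285). Pon2, a lactonase that limits lipid peroxidation, was higher (2.04, limma adjusted p = 8.07e-06), as was Txndc5, an endoplasmic reticulum disulphide isomerase (1.29, limma adjusted p = 0.000347). The second gene called lower was Txnrd3 (-0.23, limma adjusted p = 0.0333), a call lost without Med1cKO 3, WT 1, WT 2 or WT 3 (limma adjusted p up to 0.0847).

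Of 28 tested genes of the NRF2 pathway list, some of them also in the lists above, 12 were higher and 4 lower (9 and 6 after rescaling), with a median log2 change of 0.31, close to the 0.25 of all genes. The small MAF proteins, which pair with NRF2 on DNA, were higher. Maff averaged 20.9 ± 3.55 FPKM in Med1cKO and 4.13 ± 1.35 FPKM in WT (log2 change 2.12, limma adjusted p = 1.79e-05), and Mafk averaged 49.2 ± 4.31 FPKM in Med1cKO and 14.0 ± 1.91 FPKM in WT (1.75, limma adjusted p = 2.39e-06). The aldo-keto reductase Akr1b8 was higher (1.21, limma adjusted p = 0.00142), and its relative Akr1b3 was lower (-1.41, limma adjusted p = 0.00623). The carboxylesterase Ces1d was at 0.904, 0.797, 0.747 and 7.77 FPKM in Med1cKO 1 to 4, against 59.6, 47.0, 40.1 and 22.3 FPKM in WT 1 to 4. Its log2 change was -3.92 (limma adjusted p = 0.000168), and the aldehyde oxidase Aox1 was also lower (-1.15, limma adjusted p = 0.00351).

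Of 20 metal handling genes tested, 11 were higher and none lower as deposited (9 and 3 after rescaling), with a median log2 change of 0.51. Over all genes 44.9% were higher and 16.4% lower, or 27.0% and 26.9% after rescaling. The zinc importer Slc39a6 was at 18.1, 17.2, 32.3 and 12.4 FPKM in Med1cKO 1 to 4, against 1.75, 1.79, 1.87 and 1.56 FPKM in WT 1 to 4 (log2 change 2.86, limma adjusted p = 1.04e-05). The groups did not overlap, and Med1cKO 3 was the highest. The intracellular zinc transporters Slc39a13 and Slc30a4 were also higher (1.42 and 1.27, limma adjusted p = 7.16e-07 and 1.54e-05). Mtf1, which encodes the metal-responsive factor named above and was picked for that role after its values were seen, averaged 4.10 FPKM in Med1cKO and 2.56 FPKM in WT (0.52, limma adjusted p = 0.000597). Mt3, another metallothionein, did not pass (-0.15, limma adjusted p = 0.718), and Mt4 was listed at 0 in all 8 libraries. Without Med1cKO 4, 1 gene of this list was lower.

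Of 17 genes of oxidant production tested, 4 were higher and 1 lower (3 and 4 after rescaling), with a median log2 change of 0.15. With a minimum mean of 5 FPKM, 2 were higher. Nox4, an NADPH oxidase that makes hydrogen peroxide, was at 11.4, 1.94, 4.07 and 4.73 FPKM in Med1cKO 1 to 4, against 0.428, 0.376, 0.255 and 0.442 FPKM in WT 1 to 4 (log2 change 2.06, limma adjusted p = 0.000862). Lox, the collagen crosslinking oxidase that releases hydrogen peroxide outside the cell, was at 48.3, 34.5, 56.9 and 67.1 FPKM in Med1cKO 1 to 4, against 1.06, 1.72, 2.22 and 1.87 FPKM in WT 1 to 4 (4.25, limma adjusted p = 8.1e-07). For both genes the groups did not overlap. The fibroblast marker sum was higher in the same libraries, largely through Postn, Col1a1 and Col1a2. The smooth muscle and pericyte sum was higher there too, largely through Cnn1. A relation to these sums was not tested. Ero1l, which makes hydrogen peroxide during disulphide formation in the endoplasmic reticulum, was higher (0.96, limma adjusted p = 1.84e-05), and Maob, a monoamine oxidase of the outer mitochondrial membrane, was lower (-1.53, limma adjusted p = 0.00014). Without Med1cKO 2 or Med1cKO 3, 2 genes of this list were lower.

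**Figure D5:**
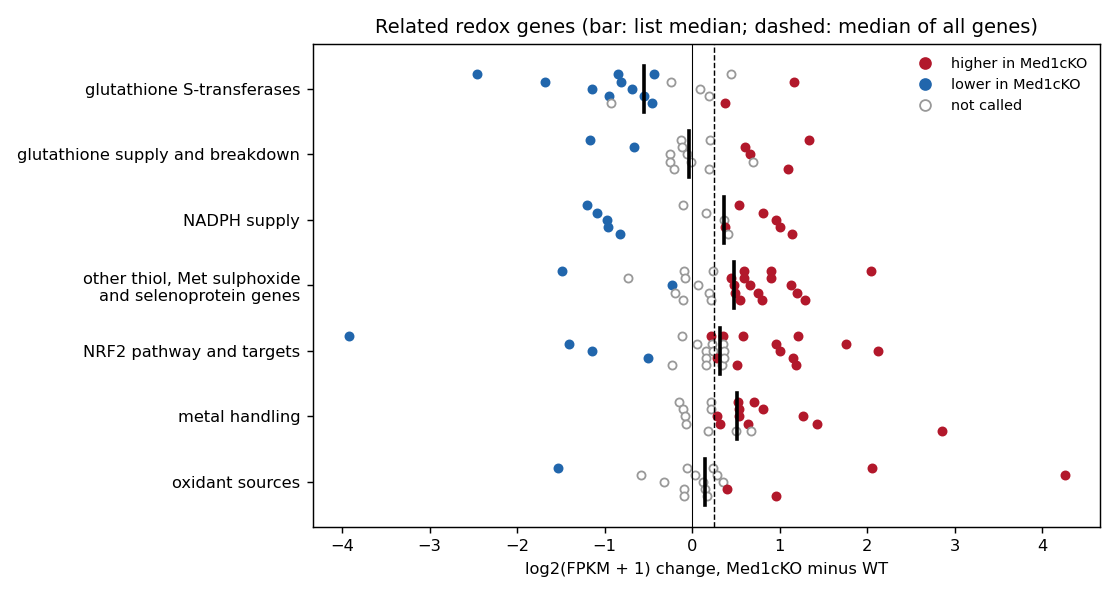
Log2 change of each tested gene of 7 related lists on the log2(FPKM + 1) scale, Med1cKO minus WT, as deposited, with genes called higher in red, called lower in blue and not called open; black bars are list medians, and the dashed line at 0.25 is the median of all genes tested. The glutathione S-transferases have the lowest median (-0.54) and the metal handling genes the highest (0.51), and after rescaling these medians are -0.79 and 0.25.

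The authors' deposited table of their own comparison holds all 33 genes, with 15 significantly higher, 9 significantly lower and 9 not significant in Med1cKO. Over all genes the authors' deposited table has 5745 significant among 12539 tested. The calls were the same as those from the deposited FPKM for 26 genes and the same as those after rescaling for 31, and no gene was called in opposite directions. In the authors' deposited table Cat (log2 fold change -0.75) and Mt1 (-0.85) were significantly lower, both at a q-value of 0.000211, and Gpx4 (0.11), Prdx6 (0.13) and Nqo1 (0.23) were not significant. For Gclc and Txnrd2 the authors' deposited table differs from both fits, with q-values of 0.0567 and 0.0903.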

How the data were processed

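Trizol RNA from frozen ventricles was made into stranded TruSeq libraries, per the labels' protocols. Per the submitters' processing notes, TopHat (application version 1.0.0), Cufflinks and Cuffdiff were used with mm10. Annotation and counting settings were not given in the sources used here. Per the file headers, the authors deposited a table of FPKM for single libraries and another with FPKM pooled by group, the log2 of the fold change, a p-value and a q-value. In the first of these, 312 rows held no number, 1 cell was a failed estimate, and zeros, written as 0.001, were set back to 0. Log2 cells of 531 rows of the authors' deposited table held an error and were not used. The row of highest mean FPKM stood for a symbol.

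Library columns were matched by the names in the descriptions. From the deposited FPKM, log2(FPKM + 1) was fitted with limma 3.58.1 (R 4.3.3, intensity trend, no covariate) for the 11975 genes whose mean over the 8 libraries reached 1 FPKM. Tests were two-sided, with Benjamini-Hochberg adjustment over all genes tested and calls at an adjusted p under 0.05. Folds on this scale understate changes of low genes. The fit was also run on simulated data in which few genes changed, unlike here, and no result above rests on it. The 33 genes, the pools, the other lists and the rules were chosen with earlier results of these data known. Values in every library are given for genes that passed with an absolute log2 change of at least 0.8, for the most abundant gene of each pool and for the regulators, and in each other list up to 3 genes per direction are named. Alternatives were a pseudocount of 0.1, no minimum, a minimum of 5 FPKM, quantile normalization, median-of-ratios rescaling, no intensity trend, a replicate block and leaving out each library in turn. Gene positions are from GENCODE M21 on GRCm38, the assembly also called mm10. In it 6 of the 33 genes overlap another coding gene.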

Additional observations from a re-analysis of the deposited data

Results flagged for a closer look

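A single library lay far from the other 3 of its group for 3 of the 33 genes, by Dixon's criterion over 66 groups checked, where chance gives about 1 group in 20. Mt2 was at 387 FPKM in Med1cKO 4, against 52.6 to 82.9 FPKM in Med1cKO 1 to 3. Gpx1 was at 84.4 FPKM in WT 4, against 72.2 to 73.7 FPKM in WT 1 to 3. Txn2 was at 237 FPKM in WT 4, against 198 to 203 FPKM in WT 1 to 3. Gpx1 remained higher and Txn2 lower in Med1cKO when that library was left out.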

How the results depend on the processing

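Genes called numbered 5372 higher and 1964 lower as deposited, 3237 and 3223 after median-of-ratios rescaling, and 3437 and 3066 after quantile normalization. Of the 33 genes 19 were higher and 8 lower as deposited, 16 and 10 after rescaling, and 17 and 9 after quantile normalization. Genes of the related lists called lower numbered 24 as deposited and 43 under either rescaling. The median log2 change of endoplasmic reticulum genes was 0.94 as deposited, 0.68 after rescaling and 0.69 after quantile normalization, and that of mitochondrial genes -0.58, -0.86 and -0.79. Changes that did not pass turned sign after rescaling for Prdx1 (-0.148), Sod1 (-0.096), Glrx2 (-0.006) and Keap1 (-0.172), and for Keap1 after quantile normalization (-0.162). With each library left out in turn, 4901 to 5279 genes were higher and 1798 to 1949 lower, 17 to 19 of the 33 higher and 7 to 8 lower, and 47 to 56 of the related genes higher and 22 to 28 lower. The medians were then 2.12 to 2.53 for secreted, 0.89 to 1.03 for endoplasmic reticulum, 0.54 to 0.62 for cytosolic and -0.65 to -0.52 for mitochondrial genes. With the replicate number as a block (replicate block), 5089 genes were higher and 1867 lower, and 19 and 9 of the 33, Cat being added. The replicate numbers are those of the sample titles, and the names of the deposited columns share no number between the groups. Same-numbered libraries deviated together with correlations of 0.14, 0.033, -0.041 and -0.014, and only number 1 was matched best by its own number. The numbers were therefore not taken to pair the samples. The other pseudocount changed no call among the 33, nor did a minimum of 5 FPKM, and Glrx5 lost its call with no minimum and with no intensity trend. The number of fragments is unknown, so no counting error can be given.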

Other observations

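Nnt, the nicotinamide nucleotide transhydrogenase that makes NADPH in mitochondria, was at 119, 123, 132 and 65.9 FPKM in Med1cKO 1 to 4, against 269, 244, 181 and 158 FPKM in WT 1 to 4 (log2 change -0.96, limma adjusted p = 0.00656). Every Med1cKO library was below every WT library. Some C57BL/6 substrains carry a deletion in this gene, the labels do not name the substrain, and a gene level does not show whether the deletion is present.

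A few genes of the related lists, picked after their values were seen, were highest in Med1cKO 4, as Mt1 and Mt2 were. Mgst1, a microsomal glutathione S-transferase, was at 66.5 FPKM in that library, against 7.72 to 26.2 FPKM in the other Med1cKO libraries and 12.1 to 16.3 FPKM in WT. The metal importer gene Slc39a8 was at 6.90 FPKM there, against 0.144 to 0.571 FPKM in the other Med1cKO libraries and 0.166 to 0.55 FPKM in WT. Mt3 was at 3.08 FPKM there, against 0.413 to 0.611 FPKM in the other Med1cKO libraries and 0.777 to 1.62 FPKM in WT. Txnip, which encodes an inhibitor of thioredoxin, had a low library in the other group, with 110 to 172 FPKM in Med1cKO, 96.4 FPKM in WT 4 and 250 to 307 FPKM in WT 1 to 3.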
